A study of Mus musculus with 12 samples.

Results

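The guanylate-binding protein (Gbp) genes were described in 12 mouse tumors. The members were 10 genes, Gbp2, Gbp2b, Gbp3, Gbp4, Gbp5, Gbp6, Gbp7, Gbp8, Gbp9 and Gbp10, out of 30630 genes listed for every tumor. They were chosen by gene name, with their values in the swimming and control groups already known, so the differences between the groups are given below as a description, with counts of limma calls beside those of all genes and no p for a single member. Tumors were grown from CT-26, a colon carcinoma cell line of the mouse, injected with Matrigel under the skin of the right flank of male BALB/c mice. The mice were 4 to 6 weeks old when bought and were injected after a period of adaptation. Each group had 10 mice, of which 6 control and 6 swimming mice gave a sequenced tumor, and the swimming mice swam over 3 weeks while the control mice did not. All 12 tumors came from the same cell line, so the groups differ by swimming and by nothing else that the labels give. No batch is named.

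Guanylate-binding proteins are large GTPases of the dynamin superfamily, and their genes are among those most strongly induced by interferon-γ. In infected cells they gather on vacuoles that hold pathogens and on bacteria in the cytosol, and they take part in the activation of inflammasomes. Gbp2, Gbp2b (also called Gbp1) and Gbp5 end in a motif to which a lipid anchor is attached by prenylation. In a bulk tumor they can be expressed by the tumor cells as well as by the immune and stromal cells of the host.

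In the GENCODE M21 annotation of the mouse genome GRCm38, the members form 2 clusters. The chromosome 3 cluster lies on the plus strand at chr3:142493978-142638008 and holds Gbp5, Gbp7, Gbp3, Gbp2b and Gbp2 in this order within 144 kb. The chromosome 5 cluster lies on the minus strand at chr5:105014150-105293698 and holds Gbp8, Gbp9, Gbp4, Gbp10 and Gbp6 within 280 kb. The exons of Gbp8, Gbp9 and Gbp4 share only 60 or 61 bases with each other, around a common first exon. Gbp10 and Gbp6 are both overlapped on their own strand by Gm43302, a gene model that joins exons of Gbp6 to the last exon of Gbp10 and shares 81.6% of its exonic bases with them. Other genes in or beside the clusters are Gbp11, a pseudogene in some mouse strains, and Gm43802, a processed pseudogene inside an exon of Gbp7.

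**Figure D1:**
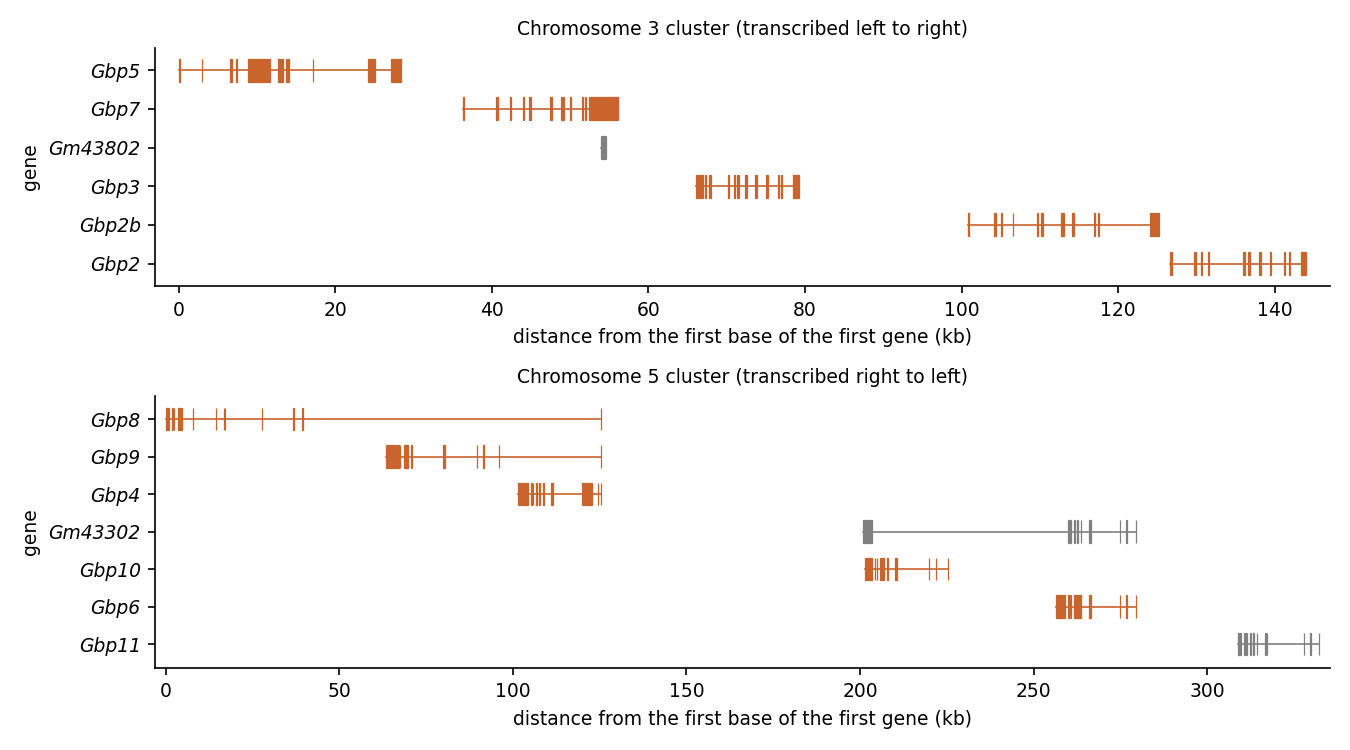
Exons (boxes) of the members (orange) and of other genes in the clusters (grey) in GENCODE M21, drawn to scale as the distance in kb from the first base of the first gene, with lines joining the exons of a gene. The 5 chromosome 3 members do not overlap each other, while Gm43302 spans Gbp10 and Gbp6 and shares 81.6% of its exonic bases with them.

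The promoters were read for the members that the RefSeq table of GRCm38.p6 holds, because interferon signaling acts on these genes through short sequence elements in promoters. Of the 10 members 5 had an entry, all on chromosome 3, with 250 bases before and 50 bases after each start. Both strands were searched for GAAA, any 2 bases and GAAA again, an interferon-stimulated response element (ISRE)-like motif, and for TTCNNNGAA, the gamma-activated site (GAS) motif. The ISRE-like motif was found in each of the 5 genes, while it was present in 3.44% of all 32851 promoters of the same length. The 30 bases around it are printed below for the plus strand, 5′ to 3′, with the motif in capitals, where it reads as its reverse complement.
Gbp5 at chr3:142496759-142496788: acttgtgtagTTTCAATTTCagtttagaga
Gbp7 at chr3:142530273-142530302: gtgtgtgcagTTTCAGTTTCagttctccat
Gbp3 at chr3:142559992-142560021: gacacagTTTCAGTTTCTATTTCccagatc
Gbp2b at chr3:142594700-142594729: gtacttctaaTTTCACTTTCttctttatca
Gbp2 at chr3:142620594-142620623: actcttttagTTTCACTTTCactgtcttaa

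Counted from the RefSeq start, the motif began at position -165 in Gbp5, -53 in Gbp7, -45 and -39 in Gbp3, -137 in Gbp2b and -59 in Gbp2. In Gbp3 the capitals hold 2 overlapping matches, and a second promoter entry of this gene held none. For Gbp2, 22 of the 30 bases lie in an exon of the GENCODE model, which starts upstream of the RefSeq start, while the other stretches lie outside the exons of their gene. The GENCODE model of Gbp5 also starts upstream, at chr3:142493978, so the stretch of Gbp5 lies in an intron of that model. The GAS motif was found 2 times in Gbp5 and 2 times in Gbp7, with no overlap with the ISRE-like motif, and it was present in 8.3% of all promoters. The letters are a description and not a measured binding site.

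Expression was given by the authors as FPKM, a read number divided by gene length and by the depth of the library, so levels can be set side by side between genes. The FPKM values of all genes summed to between 380139 and 407109 per tumor, and 22293 to 23974 genes were above 0. Reads per tumor cannot be recovered from FPKM, so only relative depth is known. Relative to control 1, depth estimated from weakly expressed genes was 0.695 in control 2 and 0.871 to 1 in the other tumors. No tumor stood apart over all genes, with a median correlation of log2 values with the other tumors of 0.986 to 0.991. Of the epithelial markers of the labelled colon carcinoma line, Krt20 was at 154 ± 32.2 FPKM in the control and 125 ± 19.1 FPKM in the swimming group (mean ± SD, n = 6), while Epcam was at 0.0312 ± 0.0321 and 0.0531 ± 0.0749 FPKM. Vil1 was likewise close to 0, at 0.0280 ± 0.0169 and 0.0405 ± 0.0351 FPKM. Cdh1, Krt19 and Cdx2 were below 1 FPKM in every tumor. Krt8 was at 29.0 ± 49.5 and 6.11 ± 4.78 FPKM and Krt18 at 10.1 ± 2.46 and 9.37 ± 2.45 FPKM. The listed epithelial markers were thus expressed only in part.

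All 10 members were detected in all 12 tumors, and their mean levels differed widely. Over the 12 tumors, Gbp2 had a mean of 60.3 FPKM and Gbp2b of 56.7 FPKM, and together they made up 48.7% to 60.6% of the summed FPKM of the family. Gbp3 and Gbp7 followed at 27.2 and 26.7 FPKM. Gbp4, at 15.0 FPKM, was the most abundant member of the chromosome 5 cluster, and it was followed by Gbp9 at 8.58, Gbp5 at 5.34, Gbp8 at 3.37, Gbp10 at 2.23 and Gbp6 at 1.76 FPKM. The order turned between the groups for 2 of these pairs of neighbours. The mean of Gbp6 was above that of Gbp10 in the control group (1.64 and 1.17 FPKM) and below it in the swimming group (1.88 and 3.29 FPKM). That of Gbp7 was above that of Gbp3 in the control group (18.6 and 17.4 FPKM) and below it in the swimming group (34.7 and 36.9 FPKM). Neighbours in this order were compared within tumors by a two-sided exact sign-flip permutation test on log2(FPKM + 1), adjusted by the Benjamini-Hochberg method over 9 pairs. Gbp2 was above Gbp2b in 11 of 12 tumors, although only by 0.13 on the log2 scale (exact permutation p = 0.00635, adjusted 0.00816). Gbp3 and Gbp7 could not be ordered, since Gbp3 was higher in 6 of 12 tumors (exact permutation p = 0.666). Gbp10 and Gbp6 could not be ordered either, with Gbp10 higher in 4 of 12 tumors (exact permutation p = 0.646). The other 6 pairs of neighbours differed in 11 or 12 of 12 tumors, with adjusted exact permutation p-values of 0.000879 to 0.00146. One of them is Gbp8 and Gbp10. The places of Gbp10 and Gbp6 also depend on how reads were divided between them and the overlapping Gm43302 (mean 8.28 FPKM), which was not tested.

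Between the groups, the chromosome 3 members had a mean 1.87 to 2.26 times as high in the swimming as in the control group. Gbp2, one of the most studied members in infected macrophages, was at 24.1, 36.3 and 60.1 FPKM (lowest, median and highest) in the 6 control tumors and at 25.4, 86.2 and 116 FPKM in the 6 swimming tumors. Its change was 0.99 on the log2(FPKM + 1) scale, with a standard error (SE) of 0.33. The groups overlapped only through swimming 1, the tumor at 25.4 FPKM, since the other 5 swimming tumors were at 73.7 FPKM or more and thus above every control tumor. Gbp2b, the neighbour and close relative of Gbp2, was at 22.4, 31.2 and 58.9 FPKM in the control and at 20.2, 83.2 and 110.5 FPKM in the swimming group, with a change of 1.07 (SE 0.37). Swimming 1 held the lowest Gbp2b value of all 12 tumors, and the next swimming tumor was at 72.0 FPKM.

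Gbp3 was at 12.2, 17.7 and 22.1 FPKM in the control and at 12.2, 38.8 and 55.2 FPKM in the swimming group, with a change of 0.93 (SE 0.29). Gbp7, a member that acts together with other family members on pathogen vacuoles, was at 11.5, 18.9 and 23.5 FPKM in the control and at 15.5, 35.1 and 53.1 FPKM in the swimming group, with a change of 0.82 (SE 0.24). Gbp5, known for its part in the activation of the NLRP3 inflammasome, was at 2.34, 3.92 and 4.44 FPKM in the control and at 2.36, 7.62 and 9.65 FPKM in the swimming group, with a change of 0.73 (SE 0.24). In these 3 genes swimming 1 was again the lowest swimming tumor and lay within or just below the control range, and the other 5 swimming tumors were above every control tumor, from 30.9 FPKM for Gbp3, 31.9 FPKM for Gbp7 and 6.58 FPKM for Gbp5. Gm43802, the pseudogene inside Gbp7, whose 50-base words are all found in Gbp7 as well, was at 0.210 ± 0.0252 and 0.224 ± 0.00653 FPKM (mean ± SD, n = 6).

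**Figure D2:**
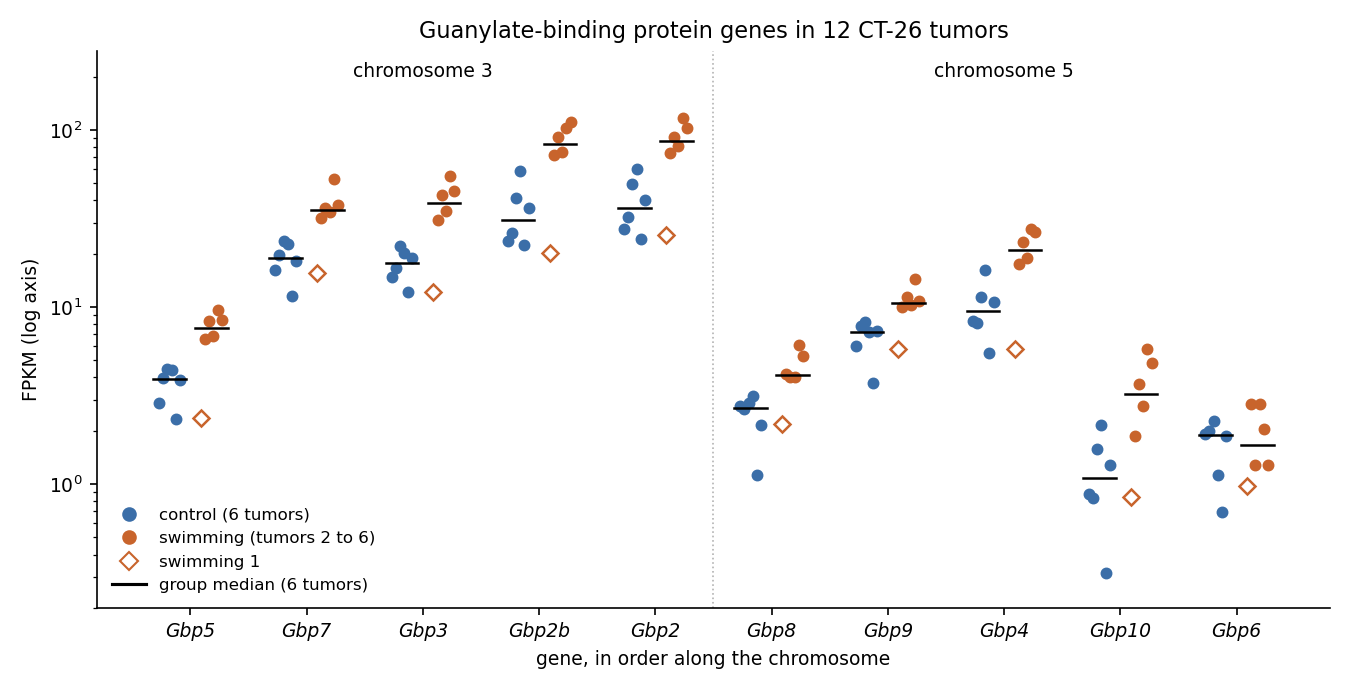
FPKM (log axis) of each member in the 6 control tumors (blue), swimming tumors 2 to 6 (filled orange) and swimming 1 (open diamond), with a bar at the median of each group of 6. For 8 members the filled orange points lie above all blue points and the diamond lies among or below the blue points, while Gbp10 and Gbp6 overlap also through other tumors.

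The chromosome 5 members differed more among themselves. Gbp4 was at 5.53, 9.50 and 16.2 FPKM in the control and at 5.76, 21.0 and 27.6 FPKM in the swimming group, with a change of 0.85 (SE 0.33). Gbp9 was at 3.73, 7.26 and 8.22 FPKM in the control and at 5.83, 10.5 and 14.4 FPKM in the swimming group, with a change of 0.56 (SE 0.19). Gbp8 was at 1.13, 2.71 and 3.14 FPKM in the control and at 2.17, 4.12 and 6.10 FPKM in the swimming group, with a change of 0.61 (SE 0.20). For each of these 3 genes swimming 1 lay within the control range and the other 5 swimming tumors lay above it, from 17.6 FPKM for Gbp4, 10.03 FPKM for Gbp9 and 4.01 FPKM for Gbp8. Gbp10 was at 0.314, 1.08 and 2.16 FPKM in the control and at 0.842, 3.22 and 5.77 FPKM in the swimming group, with a change of 0.91 (SE 0.30), and 4 of 6 swimming tumors were above every control tumor. Its ratio of means, 2.81, was the highest of the 10 members. Its change was 1.37 (SE 0.47) with a pseudocount of 0.1 and 1.46 (SE 0.51) with 0.01, then also the largest of the 10 members. That of Gbp2b was 1.09 (SE 0.38) with 0.01, and the difference between both genes was not tested.

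Gbp6 stood apart from the other members. It was at 0.691, 1.89 and 2.28 FPKM in the control and at 0.972, 1.66 and 2.85 FPKM in the swimming group, with a change of 0.11 (SE 0.20) that was smaller than its error. Only 2 of 6 swimming tumors were above every control tumor, and the median was lower in the swimming than in the control group. Without control 5, the lowest control tumor for all 10 members, the change of Gbp6 was -0.013. Gbp6 and Gbp10 share many of their sequences with other genes, since 70.7% of the 50-base words of Gbp6 and 84.1% of those of Gbp10 occur in transcripts of other genes, while the share was 1.44% to 18.1% for the other 8 members. All words of Gm43302 are shared, and it was at 5.40 ± 2.51 FPKM in the control and 11.2 ± 4.82 FPKM in the swimming group (mean ± SD, n = 6), above both Gbp6 and Gbp10. Within the sum of Gbp6, Gbp10 and Gm43302, Gbp6 made up between 8.39% and 28.5% in the control and between 6.01% and 20.3% in the swimming tumors. The sum itself was 3.89 to 13.3 FPKM in the control tumors, 4.79 FPKM in swimming 1 and 14.3 to 23.8 FPKM in the other 5 swimming tumors. The values of Gbp6 and Gbp10 are therefore uncertain, and the part of read assignment in their difference was not tested. Gbp11, at 0.335 ± 0.170 and 0.690 ± 0.346 FPKM, was weakly expressed.

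At an unadjusted p below 0.05 in limma over 19018 genes, 9 of 10 members were higher in the swimming group (5 of 5 on chromosome 3 and 4 of 5 on chromosome 5, all but Gbp6) and 0 were lower, while 3.11% of all genes tested were higher and 2.46% lower. After adjustment over all genes, 0 members and 0 genes in all were below 0.05 (0% of the genes tested), and the smallest adjusted p of any gene was 0.204. At an unadjusted p below 0.05, 1058 genes were called in either direction, 5.56% of those tested. With 12 tumors the groups overlapped in each of the 10 members, while they did not overlap in 0.0789% of all genes in the higher and 0.0684% in the lower direction. The pattern of swimming 1 as the lowest swimming tumor and the other 5 above every control tumor was held by 8 members, 5 on chromosome 3 and 3 on chromosome 5, and by 0.563% of all genes, while at least 5 of 6 swimming tumors were above every control tumor in 0.978% of all genes. These counts describe a family chosen with this contrast known. The median change was 0.83 over the members and 0.0039 over all genes. In bulk RNA, more cells of a type and more RNA per cell cannot be told apart.

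Swimming 1 lay below the control median in all 10 members, and leaving it out moved several values. The median change of the members was then 1.08, and the changes were 0.96 (SE 0.14) for Gbp5, 1.02 (SE 0.17) for Gbp7, 1.21 (SE 0.16) for Gbp3, 1.42 (SE 0.23) for Gbp2b and 1.29 (SE 0.21) for Gbp2. For the chromosome 5 members they were 0.75 (SE 0.17) for Gbp8, 0.70 (SE 0.16) for Gbp9, 1.15 (SE 0.21) for Gbp4, 1.13 (SE 0.25) for Gbp10 and 0.21 (SE 0.20) for Gbp6. The groups then did not overlap in 8 members, against 0.623% of 18771 genes in the higher direction. The unadjusted calls were again 9, against 4.54% of genes in this direction, 3.06% in the lower and 7.6% in either direction, and 0 members had an adjusted p below 0.05, against 0.0107% of genes. The labels give no reason to leave swimming 1 out, and it was singled out here by the values of the members themselves.

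**Figure D3:**
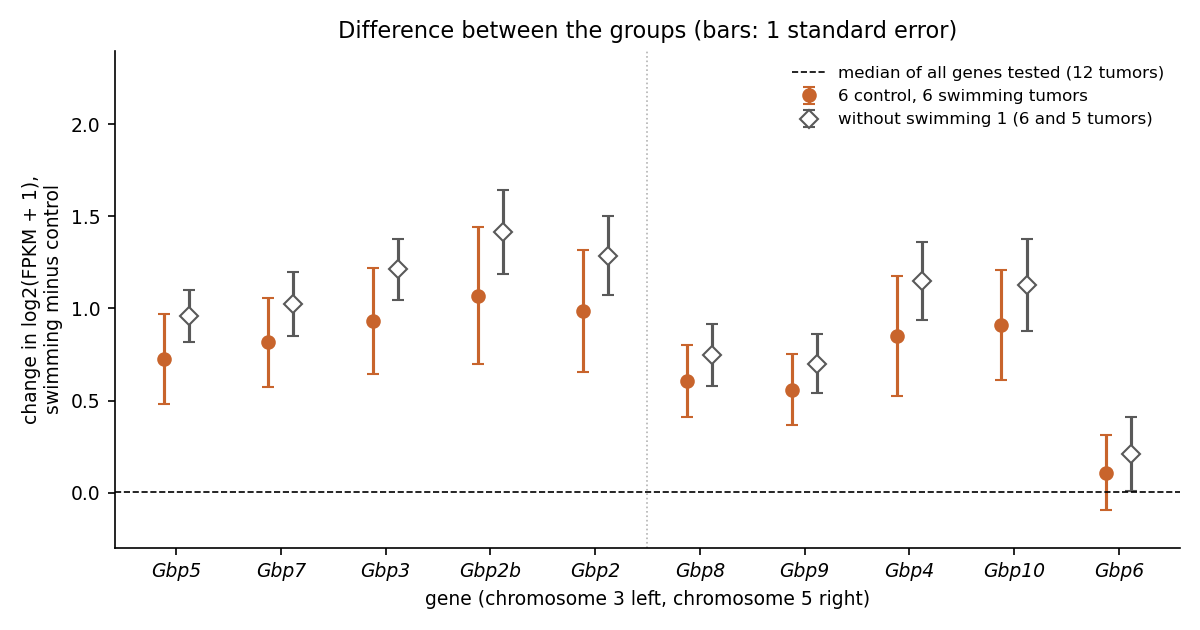
Change in log2(FPKM + 1), swimming minus control, of each member with all 12 tumors (filled circles) and without swimming 1 (open diamonds), where bars are 1 standard error of the limma fit and the dashed line is the median of all genes. With all tumors the 9 members other than Gbp6 lie between 0.56 and 1.07, and Gbp6 lies at 0.11 with a bar that crosses 0.

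The clusters were compared by the summed FPKM of their 5 members in each tumor. The chromosome 3 sum was 72.5, 108 and 166 FPKM (lowest, median and highest) in the control tumors and 75.7, 251 and 337 FPKM in the swimming tumors. The chromosome 5 sum was 11.4, 22.3 and 29.9 FPKM in the control tumors and 15.6, 41.1 and 55.9 FPKM in the swimming tumors. In both clusters control 5 was the lowest of all 12 tumors and swimming 1 the second lowest, and the other 5 swimming tumors were above every control tumor. The log2 change of the sum was 1.00 for chromosome 3 and 0.81 for chromosome 5, with within-group SDs of 0.64 and 0.57. The difference between both changes was 0.18, and its within-group SD was 0.17. These SDs give the spread of single tumors. They are larger than the standard errors of the changes, which were not computed for the sums. With the mean of log2(FPKM + 1) over members in place of the sum, the changes were 0.91 for chromosome 3 and 0.61 for chromosome 5, and the difference was 0.30. This scale understates changes of low genes, and the lowest members, Gbp6, Gbp10 and Gbp8, lie on chromosome 5. With a pseudocount of 0.01 their changes were 0.18, 1.46 and 0.81, against 0.11, 0.91 and 0.61. That of Gbp5 on chromosome 3 was 0.86 against 0.73. The part of the scale and of the uncertain Gbp6 in the 0.30 was not tested. The chromosome 3 sum was 5.20 ± 0.741 times the chromosome 5 sum in the control group and 5.87 ± 0.514 times in the swimming group (mean ± SD, n = 6), with ranges of 4.26 to 6.37 and 4.86 to 6.25 that overlap. In the 5 swimming tumors other than swimming 1 the ratio stayed between 5.89 and 6.25. With Gm43302 and Gbp11 added to the chromosome 5 sum, the ratio was 4.14 ± 0.535 in the control and 4.56 ± 0.251 in the swimming group.

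**Figure D4:**
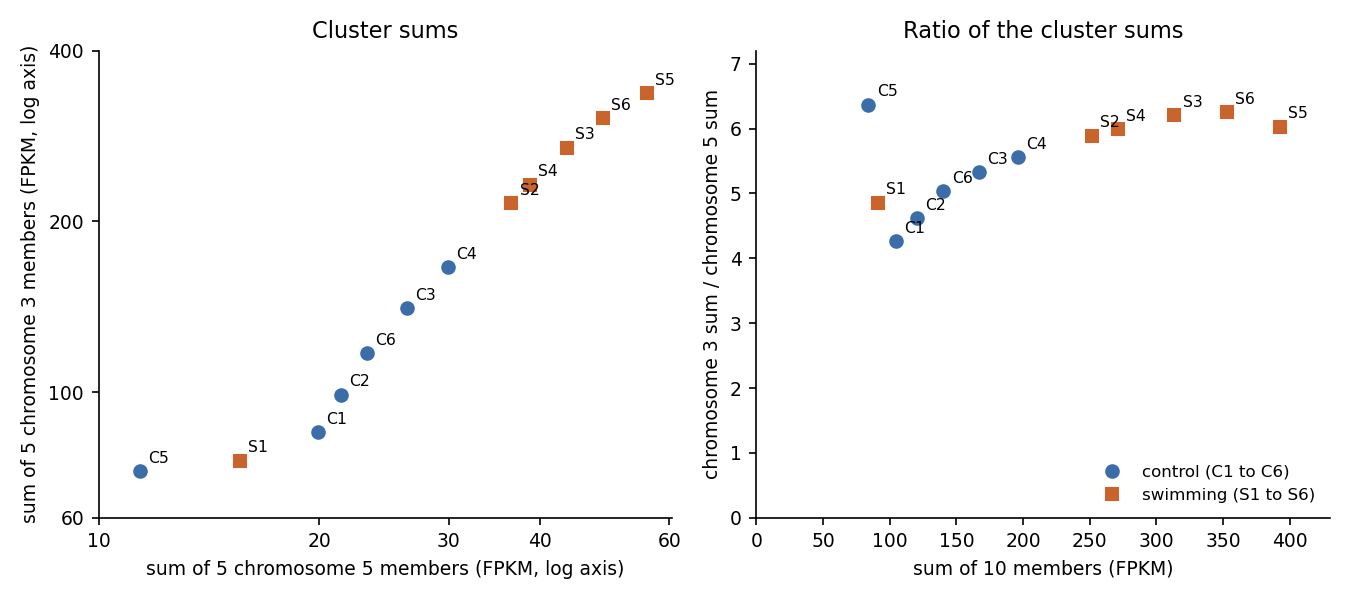
Left, the summed FPKM of the 5 chromosome 3 members against that of the 5 chromosome 5 members (log axes), 1 point per tumor (C, control and S, swimming, with the tumor number). Right, the ratio of both sums against the sum of all 10 members, where the ratio lies between 4.26 and 6.37 in all 12 tumors and swimming 1 lies beside the control tumors.

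How the members varied together within the groups was not used to choose them. After the mean of each group was removed from log2(FPKM + 1), Pearson's r and Spearman's rho were computed for the 45 pairs over the 12 tumors, with 100000 permutations within groups and Benjamini-Hochberg adjustment. For r, 36 pairs had an adjusted permutation p below 0.05, and for rho 35 pairs. These 36 were all the pairs without Gbp6, whose r ranged from 0.792 to 0.990 and whose rho ranged from 0.566 to 0.986. Of the 9 pairs with Gbp6, 0 passed, with r from 0.206 to 0.597 and adjusted permutation p-values of 0.0593 to 0.554. Within the chromosome 3 cluster r was 0.900 to 0.990. Gbp4 had high correlations with Gbp2 (r = 0.987, rho = 0.979) and Gbp2b (r = 0.984, rho = 0.986), on the other chromosome, and with Gbp10 (r = 0.948, rho = 0.965) in its own cluster. Its values with Gbp8 (r = 0.873, rho = 0.727) and Gbp9 (r = 0.853, rho = 0.636) were lower. In the 6 control tumors alone r was 0.994 with Gbp10, 0.960 with Gbp2 and 0.951 with Gbp2b. The differences between these correlations were not tested.

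Part of these correlations depended on single tumors. For each pair, the 2 tumors farthest from the median of 1 of its genes were left out. That gene was the earlier in the cluster order given above, with chromosome 3 first. The r of the pairs without Gbp6 was then 0.456 to 0.971, and that of the pairs with Gbp6 was -0.670 to 0.0635. Gbp6 is last in this order, so its own farthest tumors were not the ones chosen. Without swimming 1 the pairs without Gbp6 had r from 0.588 to 0.971, and in the 6 control tumors alone r was 0.585 to 0.994. Gbp4 and Gbp2 remained at r = 0.955 without the 2 farthest tumors, while Gbp9 and Gbp4 were then at 0.456.

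**Figure D5:**
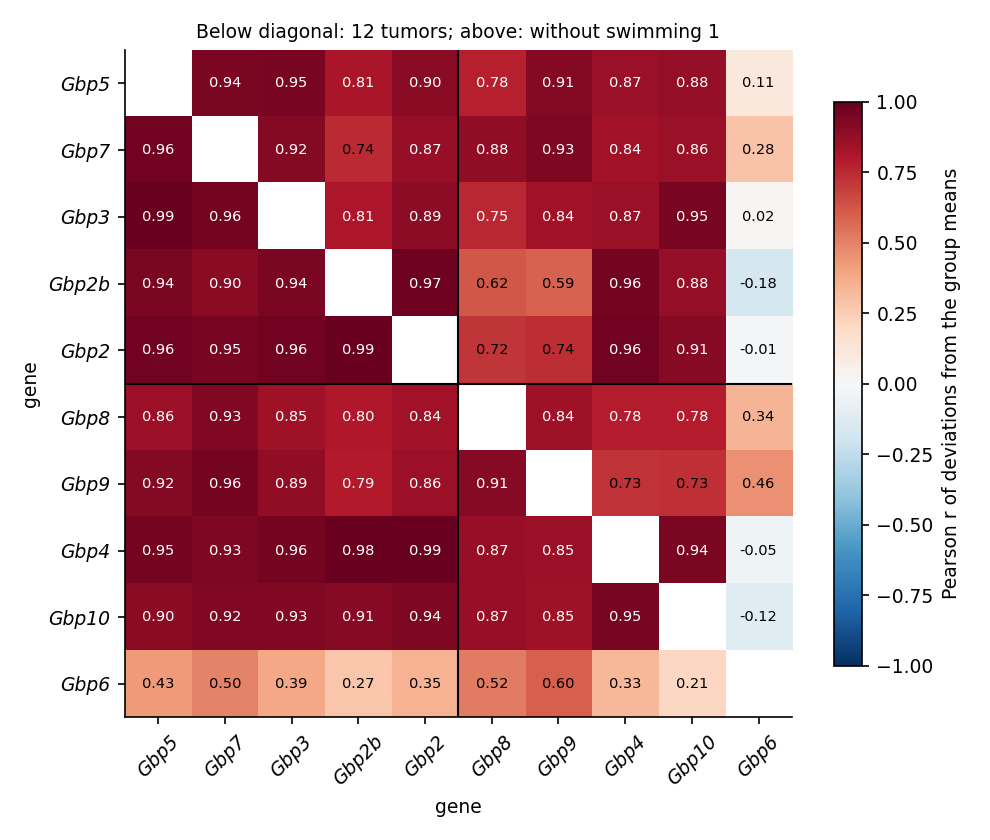
Pearson's r of the deviations from the group means for each pair of members, with all 12 tumors below the diagonal and without swimming 1 above it, where black lines separate chromosome 3 from chromosome 5. Gbp6 has the lowest values on both sides of the diagonal, while the other pairs lie at 0.792 or more below the diagonal and at 0.588 or more above it.

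The genes whose variation within groups was most like that of the members were searched among 12779 genes with a mean of at least 1 FPKM, over 12 tumors. For the mean of the chromosome 3 members they were Iigp1 (r = 0.982), Tgtp2 (r = 0.981), Gm12185 (r = 0.977), Igtp (r = 0.976) and Gvin1 (r = 0.974). Iigp1, Tgtp2 and Igtp are immunity-related GTPases, which are smaller interferon-induced GTPases, and Gvin1 is a very large interferon-induced GTPase. For the mean of the chromosome 5 members they were Gm12250 (r = 0.974), Hnrnpul2 (r = 0.956), Elf4 (r = 0.953), Tapbp (r = 0.951) and Gm4951 (r = 0.944). Gm12250 is also known as Irgb10, an immunity-related GTPase that acts with guanylate-binding proteins on bacteria, and Tapbp is tapasin of the peptide-loading complex. Without swimming 1 the r of these 10 genes was 0.890 to 0.956. The ranking picks the highest of many values, so these r are a description.

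Interferon-γ itself was weakly expressed. Ifng, the ligand that induces the family, ranged from 0.125 to 0.584 FPKM in the control and from 0.334 to 1.83 FPKM in the swimming tumors, with swimming 1 the lowest swimming tumor, and its change was 0.55 (SE 0.17). Of the 14 genes listed for interferon-γ signaling, 3 were higher at an unadjusted p below 0.05 (Ifng and Stat2 among them) and 0 lower, with a median change of 0.18. Among all genes tested 3.11% were higher and 2.46% lower, and 4.54% and 3.06% without swimming 1. These shares are also the background for the lists below. The receptor genes Ifngr1 and Ifngr2 had changes of 0.06 (SE 0.08) and -0.03 (SE 0.06), and Irf1, which binds ISRE-like elements, had a change of 0.33 (SE 0.21). Without swimming 1, 8 of the 14 were higher, and 5 were without control 3. For interferon-α and -β, 0 of 6 tested genes were higher and 0 lower, with a median change of 0.06. These were the receptor genes Ifnar1 and Ifnar2 and the signaling and response genes Tyk2, Irf3, Irf7 and Usp18, and without swimming 1 Irf7 and Usp18 were higher. No ligand passed the filter on low values, and Ifnb1 was at 0.0258 ± 0.0401 and 0.0930 ± 0.116 FPKM.

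Immunity-related GTPases, a family often found on the same vacuoles, were mostly higher in the swimming group. Of 8 tested, 7 were higher at an unadjusted p below 0.05 (Irgm1, Irgm2, Igtp, Iigp1, Tgtp1, Tgtp2 and Gm4951) and 0 lower, with a median change of 0.79. The share of all genes tested that were higher was 3.11%. Irgm2 was at 9.02 ± 5.63 and 20.5 ± 7.54 FPKM (change 1.23, SE 0.41), and Igtp at 22.8 ± 6.11 and 43.7 ± 17.8 FPKM (change 0.80, SE 0.31). Their summed FPKM was lowest in swimming 1, at 66.8 FPKM, against 82.3 to 187 FPKM in the control tumors and at least 198 FPKM in the other swimming tumors. The number of calls depended on single tumors, and it was 8 without swimming 1, 2 without swimming 5, and 3 or 4 when control 1, 2, 5 or 6 or swimming 2, 3, 4 or 6 was left out.

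Genes that act with or on the family's proteins gave few calls. Of 12 tested genes of inflammasomes and pyroptosis, 0 were higher and 1 was lower, Aim2, a sensor of cytosolic DNA, at 9.94 ± 1.62 and 8.12 ± 1.35 FPKM (change -0.26, SE 0.11), and the median change was 0.08. Irgb10 is on this list but is named Gm12250 in the annotation and so was not counted, and it was at 7.24 ± 2.20 and 16.2 ± 8.68 FPKM (change 0.93, SE 0.37), which is higher at an unadjusted p below 0.05. Casp4, the caspase-11 gene whose product senses lipopolysaccharide with the help of guanylate-binding proteins, had a change of 0.10 (SE 0.08). Of 14 genes of the ubiquitin-like conjugation that guides the family to vacuoles, 0 were called and the median change was -0.05. Of 8 prenylation genes, Rce1, the protease that trims prenylated proteins, was lower (change -0.22, SE 0.10), with a median of -0.0043 over the list. Among 13 other dynamin superfamily genes, Gvin1 was higher (change 0.58, SE 0.20) and Mfn1, which fuses mitochondria, was lower (change -0.14, SE 0.05), with a median of 0.04. The call of Aim2 was lost when control 3, control 4, swimming 3, swimming 4 or swimming 5 was left out and with array weights, and that of Rce1 when any tumor other than control 1, swimming 3 or swimming 4 was left out and with a replicate block. The number of higher genes on the inflammasome list was 2 without control 3 and 1 without control 4, swimming 1, swimming 3 or swimming 4.

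Some markers of cell types were also higher in the swimming group. Of 9 T cell markers 6 were higher at an unadjusted p below 0.05 (Cd3d, Cd3g, Cd8a, Cd8b1, Cd2 and Cd5) and 0 lower, and 8 were higher without swimming 1. The shares of all genes that were higher were 3.11% with all tumors and 4.54% without swimming 1. The summed FPKM of the T cell markers was 4.35 to 11.6 in the control tumors, 7.72 in swimming 1 and 12.2 to 21.1 in the other swimming tumors, and 0 of the 9 were below 0.1 FPKM in all tumors. Of 8 dendritic cell markers 2 were higher (Flt3 and Xcr1), with sums of 2.66 to 7.56 FPKM in the control and 3.80 to 6.79 FPKM in the swimming tumors. Both were low, with control and swimming means of 0.187 and 0.333 FPKM for Flt3 and 0.212 and 0.523 FPKM for Xcr1. Clec9a on the same list was at 0.364 and 0.352 FPKM. For 6 natural killer cell markers 0 were called with all tumors and 3 were higher without swimming 1, and their sum was 1.59 to 4.54 FPKM in the control tumors, 2.36 FPKM in swimming 1 and 4.39 to 5.69 FPKM in the other swimming tumors. For 9 macrophage markers 0 were called with all tumors, with sums of 747 to 1077 and 868 to 1222 FPKM. Without swimming 1, 1 of them was lower, Cd14 (change -0.26), and 0 were higher. The markers of B cells, endothelial cells, fibroblasts and skeletal muscle also gave 0 calls. The part of these cells in the differences of the members was not tested.

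Over the 12 tumors, with group means removed, Gbp2 and Gbp4 were set against single genes, and the 12 relations, chosen after the members' values were known, were adjusted together. The 2 farthest tumors are here those farthest from the median of the single gene. For Irf1, r was 0.742 and rho 0.769 with Gbp2 (adjusted permutation p = 0.0189 and 0.0167), and r was 0.834 without the 2 farthest tumors, swimming 1 and swimming 3, but 0.583 without swimming 1 alone. For Ifng, r was 0.684 and rho 0.615 with Gbp2 (adjusted permutation p = 0.0286 and 0.0555), but r was 0.288 without the 2 farthest tumors, so the relation rests on swimming 1 and swimming 5. For Ncr1, a marker of natural killer cells, r was 0.803 and rho 0.671 with Gbp2 (adjusted permutation p = 0.0218 and 0.0433), and r was 0.358 without control 5 and swimming 1, on which the relation rests. For Cd8a, r was 0.379 and rho 0.301 (adjusted permutation p = 0.293 and 0.392), and for Adgre1, a macrophage marker, r was 0.577 and rho 0.545 (adjusted permutation p = 0.133 and 0.105). With Gbp4, Ifng gave r = 0.727 and rho = 0.727 (adjusted permutation p = 0.0218 and 0.0263) and r was 0.423 without the 2 farthest tumors. Irf1 gave r = 0.713 and rho = 0.713 with Gbp4 (adjusted permutation p = 0.0218 and 0.0263) and r was 0.802 without its 2 farthest tumors and 0.523 without swimming 1 alone. For Ncr1 and Gbp4, r was 0.855 and rho 0.734 (adjusted permutation p = 0.0149 and 0.0263), and r was 0.501 without its 2 farthest tumors. Cd8a and Adgre1 did not pass with Gbp4 either, at r = 0.340 and 0.583 (adjusted permutation p = 0.328 and 0.133) and rho = 0.210 and 0.476 (adjusted permutation p = 0.531 and 0.166).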

How the data were processed

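RNA from the 12 tumors was depleted of ribosomal RNA by the authors, mapped with HISAT2 2.0.5 and quantified with StringTie 1.3.3. The methods name the human build hg38 and the submitters' processing notes name both hg38 and GRCm38, while the files list mouse Ensembl identifiers. What was deposited is 1 FPKM value per gene and tumor, in which the authors had divided by gene length and depth. How reads were divided between overlapping genes and paralogs is part of these values, and a strand setting and the read length are not given in the sources used here. FPKM hold no read numbers, so no counting error could be given, and low values are least precise in control 2, the shallowest library.

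Of 30630 identifiers 30578 were given a symbol from GENCODE M21 (GRCm38), matched by identifier. The 19018 genes that reached 0.1 FPKM in 6 or more tumors were compared on log2(FPKM + 1) with limma 3.58.1 (lmFit and eBayes with trend, R 4.3.3), with 2 groups, no covariate and Benjamini-Hochberg adjustment, and the fit was tested on simulated data. This scale understates changes of low genes. Sums, sign-flip tests and correlations were computed with Python 3.11.15 and scipy 1.17.1, and plots drawn with matplotlib 3.10.9. The members, lists and comparisons were chosen with earlier results of these data known, so no p is given for single members between the groups and calls are only counted. Named were the members, other genes of the clusters, listed genes with a known role or an unadjusted p below 0.05, and the 5 genes most like each cluster. The 12 relations with single genes were chosen later, and those with 1 gene are not reported here. Words of 50 bases were compared between GENCODE transcripts, and promoters are from RefSeq (GRCm38.p6). Of the listed genes, Ifna1, Ifna2, Ifna5, Irgb10 and Klra8 were not matched by these symbols. The labels say that the samples are separate tumors. The same numbers 1 to 6 in both groups do not pair them. Alternatives were pseudocounts of 0.1 and 0.01, no filter or 1 FPKM, quantile and trimmed-mean scaling, no trend, array weights, a block for the replicate number, and the removal of 1 tumor at a time.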

Additional observations from a re-analysis of the deposited data

Results flagged for a closer look

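The ratio of the chromosome 3 to the chromosome 5 sum was 4.86 in swimming 1, apart from the other 5 swimming tumors, of which the nearest was at 5.89. The gap was 0.740 of the range of the swimming group, above the critical value of Dixon's test for 6 samples. Of 28 groups of values tested in this way 1.4 would be apart by chance, and the 6 control tumors ranged from 4.26 to 6.37.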

How the results depend on the processing

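Of the 210 changes of members under 21 alternatives, 209 moved by less than the SD within the groups and 1 turned, that of Gbp6. It ranged from -0.013 without control 5 to 0.21 without swimming 1. Most of this count was fixed in advance. Leaving out 1 of 6 tumors cannot move a change by a whole within-group SD. The filters, the fit without trend and the replicate block leave each member's change as it was. The count is therefore no measure of stability. The change of Gbp10 was 1.37 and 1.46 with pseudocounts of 0.1 and 0.01, against 0.91. The number of members higher at an unadjusted p below 0.05 was 9 under the 9 other settings and 8 to 9 when 1 tumor was left out, with 8 without control 5, and 0 members had an adjusted p below 0.05 in any of these fits. The number of members whose groups do not overlap ranged from 0 to 8 when 1 tumor was left out, with 8 without swimming 1. Over all genes, 391 of 12737 tested were higher at an unadjusted p below 0.05 in limma with the 1 FPKM filter, against 591 of 19018. The share of genes was nearly the same. With array weights 1 gene had an adjusted p below 0.05, and when 1 tumor was left out 0 to 3 genes had, with 3 without control 4 and 2 without swimming 1. In the order of levels, 0 neighbour pairs passed in the 6 swimming tumors alone, against 7 of 9 with all tumors. In the 6 control tumors alone, where the test is of the same size, the count stayed close to 7. With 6 tumors the smallest p of this test is so large that pairs pass after adjustment only if most of them reach it. The count then falls to 0 at once, so these 2 counts cannot tell how far the order differed. In single swimming tumors Gbp4 was below Gbp9 (5.76 and 5.83 FPKM in swimming 1) and Gbp2 below Gbp2b (102 and 110 FPKM in swimming 6). The change of the cluster sums stayed between 0.87 and 1.30 for chromosome 3 and between 0.63 and 1.06 for chromosome 5 when 1 tumor was left out. With a replicate block the changes were 1.00 and 0.81 for the sums, 9 members were called and 0 had an adjusted p below 0.05, while Rce1 of the prenylation list was no longer called. Tumors with the same number did not vary together (mean r = -0.12), and 0 of 6 correlated best with their own number.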
